A study of Rattus norvegicus with 9 samples.

Results

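The methionine and one-carbon cycle was followed in rat liver through 9 enzyme genes, taken from a list of symbols that was drawn up with earlier results of these data known: Mat1a, Mat2a, Mat2b, Gnmt, Ahcy, Bhmt, Cbs, Cth and Shmt1. Of the 17156 genes listed in the tables of the study, 8 of these 9 were present. Cth, the enzyme that splits cystathionine into cysteine, was not listed under its symbol or its synonyms and was not analysed here. Gnmt was listed with so few counts that it was not tested, which left 7 genes in each comparison between groups.

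Liver RNA was sequenced from 9 male Sprague–Dawley rats, 3 in each of 3 groups, and every rat was fasted for 12 h before sampling. The normal group received saline. In the model group, fibrosis was induced with CCl4, a solvent that injures the hepatocytes around the central vein, given by mouth at 2 ml/kg as a 50% oil solution for 9 weeks. The TA group had the same CCl4 course and then tormentic acid (TA), a plant triterpenoid, for 6 weeks. The dose of the TA group was 3 mg/kg according to the design text of the series, while the labels of the single libraries give no dose. The labels name the tissue of the model and TA groups hepatitis stage liver. The 3 livers of a group came from groups that held 10 rats in the study. Values are read counts per gene and CPM, counts scaled to a common library size after TMM, a normalisation that centres the bulk of genes between libraries.

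The cycle makes and recycles S-adenosylmethionine (SAM), the methyl donor of the cell. Methionine adenosyltransferases join methionine to ATP to form SAM: Mat1a encodes the catalytic subunit of the adult hepatocyte, Mat2a that of most other, fetal and dividing cells, and Mat2b a regulatory subunit that works with the Mat2a product. Methyltransferases such as Gnmt turn SAM into S-adenosylhomocysteine, Ahcy hydrolyses that to homocysteine, and Bhmt gives homocysteine a methyl group from betaine and so returns it to methionine. Cbs and Cth lead homocysteine away into cysteine, and Shmt1 moves a carbon unit from serine to cytosolic folate. A high Mat1a to Mat2a ratio is a known property of mature liver.

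The start regions of the genes at the centre of the results are shown first, because Mat1a and Mat2a catalyse the same reaction and stood in opposite order between the groups, while Ahcy and Bhmt were ordered like Mat1a. The sequences are the 250 bases before the annotated start, from RefSeq on the GRCr8 build, which matched 9 of 9 members by symbol. They are written 5′ to 3′ on the strand of the gene. Capitals mark matches, on either strand, to TATAAA (the TATA box), GGGCGG (the GC box), CCAAT (the CCAAT box), CACGTG (an E-box) or TGACNNNGC (the core of the antioxidant response element), so a match on the other strand reads as its reverse complement.
Mat1a, chr16:17016918-17017167, + strand: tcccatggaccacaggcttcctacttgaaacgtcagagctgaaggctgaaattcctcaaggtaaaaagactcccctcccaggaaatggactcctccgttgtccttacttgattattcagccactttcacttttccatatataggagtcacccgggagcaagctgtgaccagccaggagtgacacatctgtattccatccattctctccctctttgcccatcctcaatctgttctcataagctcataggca
Mat2a, chr4:106053613-106053862, - strand: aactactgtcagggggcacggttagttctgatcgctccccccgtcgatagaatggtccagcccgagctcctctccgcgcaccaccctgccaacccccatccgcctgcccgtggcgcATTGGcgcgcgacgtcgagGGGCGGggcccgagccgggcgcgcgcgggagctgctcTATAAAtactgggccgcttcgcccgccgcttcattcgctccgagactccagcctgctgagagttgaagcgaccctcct
Ahcy, chr3:164044563-164044812, - strand: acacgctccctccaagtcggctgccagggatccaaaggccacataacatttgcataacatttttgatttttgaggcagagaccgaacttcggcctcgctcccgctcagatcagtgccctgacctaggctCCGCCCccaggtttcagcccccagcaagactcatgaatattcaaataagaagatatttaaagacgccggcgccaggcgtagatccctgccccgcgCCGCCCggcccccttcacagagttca
Bhmt, chr2:26614430-26614679, - strand: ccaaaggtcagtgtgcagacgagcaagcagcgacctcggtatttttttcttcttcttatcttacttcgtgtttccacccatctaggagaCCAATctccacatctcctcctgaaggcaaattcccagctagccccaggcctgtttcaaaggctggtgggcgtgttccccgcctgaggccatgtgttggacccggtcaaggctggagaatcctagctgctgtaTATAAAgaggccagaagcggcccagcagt

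The start regions of Mat1a and Mat2a differed in base composition. The Mat1a region was 48% G or C with 3 CpG pairs, and it held none of the 5 motifs. The Mat2a region was 67.6% G or C with 29 CpG pairs, and 94.7% of all 33469 promoters in the table had as many or fewer. It held a CCAAT box at -134 to -130, a GC box at -115 to -110 and a TATA box at -78 to -73, counted from the annotated start. The median promoter had 51.2% G or C and 5 CpG pairs. The Ahcy region, with 15 CpG pairs, held a pair of GC boxes, and the Bhmt region, with 8, held a CCAAT box and a TATA box at -29 to -24. Among all promoters of this length, 12.9% held the TATA box letters, 30.5% the GC box, 34% the CCAAT box, 5.59% the E-box and 10.1% the antioxidant core, so matches to the GC and CCAAT boxes are common by themselves. No motif overlapped another in the 4 sequences.

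The libraries held 13156735 to 18090405 counts. Model rat 1 stood apart: its 50 most abundant genes took 27.9% of its counts, against 40.4% to 45.7% in the other 8 livers. All 16 hepatocyte markers were detected in every group, and their summed level ran from 178059 to 216654 CPM in the normal group, from 47145 in model rat 1 to 149626 in the model group, and from 150955 to 234352 in the TA group. The 11 measured stellate cell and myofibroblast markers summed to 219 to 313, 1239 to 12663 and 708 to 1213 CPM, and the 7 cholangiocyte markers to 18.7 to 31.6, 120 to 1987 and 34.9 to 54.5 CPM in the normal, model and TA groups. In both lists the highest sum was that of model rat 1. The part of cell composition in the results below was not tested. In pieces of whole liver, fewer cells of a type and less RNA per cell cannot be told apart.

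Per kilobase of transcript, which allows levels of different genes to be compared, the order in the normal group was Bhmt, Mat1a, Ahcy, Cbs, Shmt1, Mat2b and Mat2a, with Gnmt last. Bhmt stood at 1242 ± 266 CPM per kb (mean ± SD, n = 3), Mat1a at 782 ± 37.3, Ahcy at 568 ± 106, Cbs at 174 ± 22.2 and Shmt1 at 87.3 ± 32.3. Mat2b, at 14.8 ± 1.44, and Mat2a, at 14.3 ± 2.03 CPM per kb, did not differ beyond their spread, and no other neighbours in this order had overlapping means ± SD. The abundant genes are those of adult hepatocytes, and the extrahepatic synthetase pair was at the bottom of the tested genes. The 8 listed genes together took 0.527%, 0.58% and 0.604% of all counts in normal rats 1 to 3, 0.133%, 0.538% and 0.406% in model rats 1 to 3, and 0.844%, 0.684% and 0.502% in TA rats 1 to 3. The lowest share was that of model rat 1, model rat 2 lay within the range of the normal group, and model rat 3 lay below it.

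**Figure D1:**
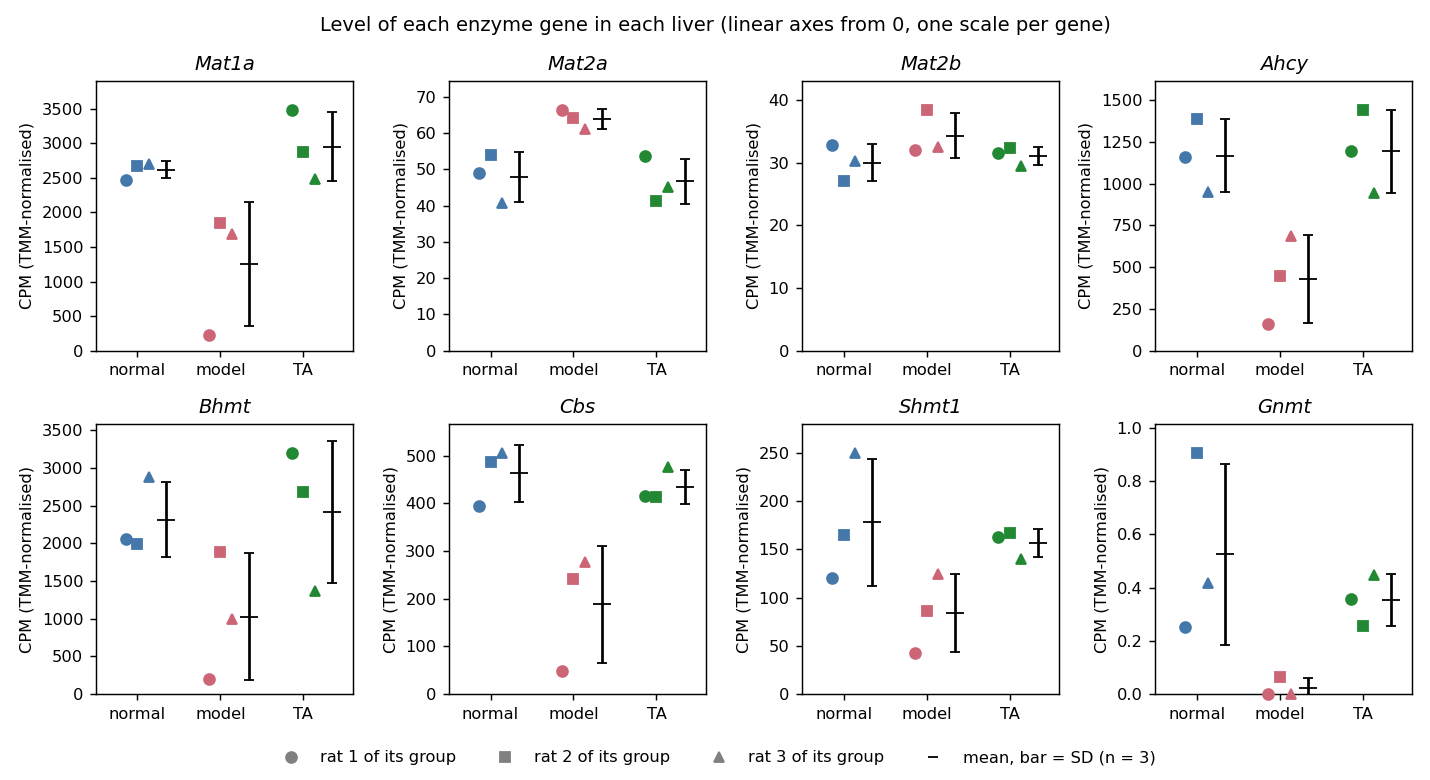
Level of the 8 listed enzyme genes in each of the 9 livers, in TMM-scaled CPM on linear axes from 0, with a scale for each gene. Symbols are rats 1 to 3 of each group, and the bar beside them is the mean ± SD (n = 3). For Mat1a, Ahcy and Cbs the 3 model livers lie below the normal and TA livers, with model rat 1 the lowest (Mat1a 227 CPM), while for Mat2a they lie above them.

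Model VS Normal asks what the CCl4 course was accompanied by in the liver. The mean levels of 5 enzymes, Mat1a, Ahcy, Bhmt, Cbs and Shmt1, were between 2.06-fold and 2.68-fold lower in the model group in the fit, and Mat2a was 1.35-fold higher. None of the 7 genes passed an edgeR adjusted p under 0.05, where 7.87% of the 12730 tested genes did. At an unadjusted p under 0.05 there were 2 of 7, Ahcy and Shmt1, against 28.9% of all genes. For 5 of 7 genes the 2 groups did not overlap, against 38.2% of all genes: Mat1a, Ahcy, Bhmt and Cbs were lower in every model liver and Mat2a was higher in every one. The median log2 fold change of the 7 was -1.07, beside 0.02 for all tested genes, and -0.68 without model rat 1. The 16 hepatocyte markers also all had a fold change below 0 in this comparison, with a median of -0.84 and 0 of 16 past the adjusted threshold.

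TA VS Model asks how the livers given TA after the same CCl4 course differed from those without it. The signs of all 7 fold changes were opposite to those of Model VS Normal. These comparisons share the model livers, so the opposite signs are not independent of each other. None of the 7 genes passed the edgeR adjusted threshold, and neither did any of the 12781 genes tested (0%; smallest edgeR adjusted p 0.23), although 1999 genes (15.6%) had an unadjusted p under 0.05 and DESeq2 called 541 genes and limma voom 169. Among the 7, Ahcy had an unadjusted p under 0.05. In CPM scaled over the 6 livers of this comparison, the groups did not overlap for 6 of 7 genes, against 23.1% of all genes. Mat1a, Ahcy, Cbs and Shmt1 were higher in every TA liver and Mat2a and Mat2b lower. For Mat2b this did not hold in the CPM scaled over all 9 livers, where TA rat 2 (32.3) was above model rat 1 (32). The median log2 fold change of the 7 genes was 1.20, beside -0.00 for all genes, and 0.74 without model rat 1. Of the 16 hepatocyte markers, 15 also had a fold change above 0 in this comparison and 1 below. Their median was 0.75, with 0 of 16 past the edgeR adjusted threshold.

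TA VS Normal sets the treated livers against livers that never met CCl4. The fold changes of the 7 genes lay between -0.22 and 0.14 on the log2 scale, none passed the edgeR adjusted threshold, which 32 genes (0.263%) did, and none had an unadjusted p under 0.05, which 9.43% of all genes had. All 7 genes overlapped between the groups, whereas 15.1% of all genes did not. Their median log2 fold change was 0.00, with -0.01 for all tested genes. The standard errors, 0.178 to 0.336, leave room for differences of that size in either direction.

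**Figure D2:**
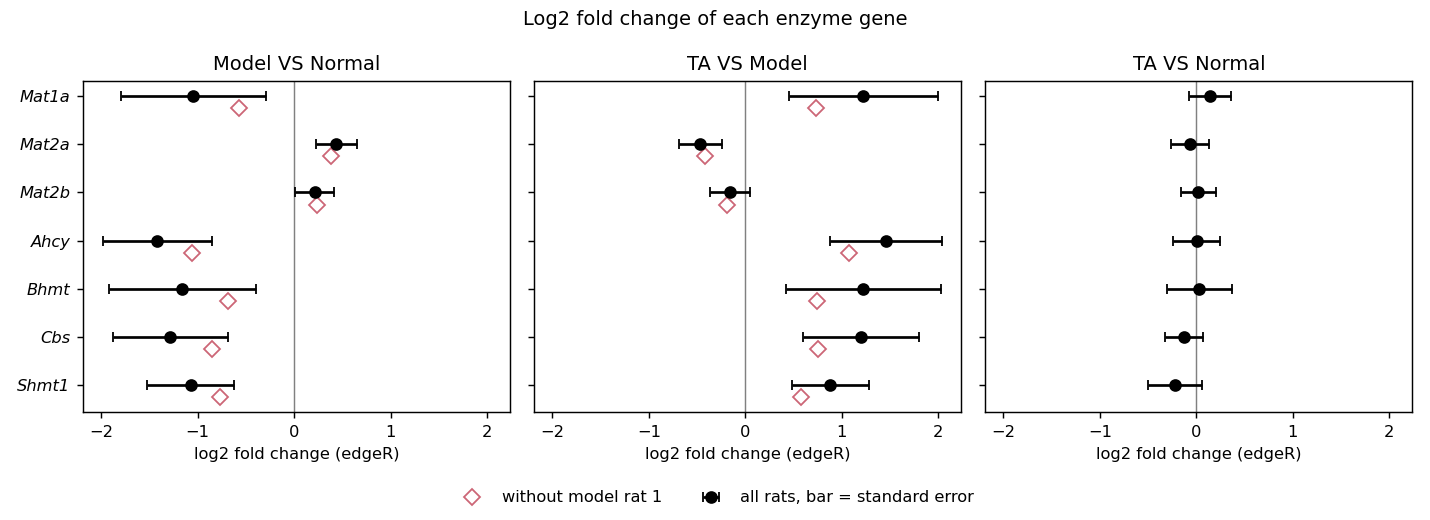
Log2 fold change of the 7 tested genes in the 3 comparisons (edgeR). Filled points use all rats, with bars of 1 standard error, and open diamonds leave out model rat 1. Mat1a, Ahcy, Bhmt, Cbs and Shmt1 lie below 0 in Model VS Normal and above 0 in TA VS Model, Mat2a and Mat2b lie opposite, and in TA VS Normal all lie between -0.22 and 0.14.

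Of the SAM synthetase genes, Mat1a was abundant and low in the model group. Its counts were 29540, 41233 and 32359 in normal rats 1 to 3, 5156, 28405 and 23830 in model rats 1 to 3, and 48627, 33866 and 33323 in TA rats 1 to 3. In CPM these were 2473, 2668 and 2706, then 227, 1852 and 1687, then 3481, 2876 and 2488. Every model liver was below every normal and every TA liver, and model rat 1 was far below the other 2. In Model VS Normal the log2 fold change of Mat1a was -1.04 ± 0.748 (SE), with an edgeR adjusted p of 0.381, and -0.57 without model rat 1. In TA VS Model it was 1.22 ± 0.772 with an edgeR adjusted p of 0.443, and 0.74 without that liver. Between TA and normal livers it was 0.14 ± 0.218 with overlapping groups.

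Mat2a, the synthetase gene of dividing and non-hepatic cells, had the opposite order and a narrow spread. It stood at 49.1, 54 and 40.6 CPM in the normal group, 66.4, 64.1 and 61.1 in the model group, and 53.6, 41.4 and 45.2 in the TA group. The lowest model liver was above the highest liver of either other group, and model rat 1 lay close to the other 2 model rats. Its log2 fold change in Model VS Normal was 0.44 ± 0.216, with an edgeR adjusted p of 0.22, and -0.47 ± 0.222 in TA VS Model, with an edgeR adjusted p of 0.345. Without model rat 1 these were 0.38 and -0.42. The 8 proliferation markers moved in the same directions: their summed level was 11.8 to 13.6 CPM in the normal, 24.1 to 287 in the model (287 in model rat 1) and 6.87 to 19.7 in the TA group. At an unadjusted p under 0.05, 8 of 8 were higher in Model VS Normal, 2 of them past the edgeR adjusted threshold, and 8 of 8 were lower in TA VS Model, 0 of them past it. Their part in the Mat2a values was not tested. The size of the Mat2a difference depended on the scaling: with library totals alone the median of all genes moved to 0.65 in Model VS Normal and to -0.48 in TA VS Model, and Mat2a stood at 1.07 and -0.95. The Model VS Normal edgeR adjusted p of Mat2a was then 0.0497.

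Mat2b, the regulatory partner of Mat2a, varied little. Its level was 32.8, 27 and 30.2 CPM in the normal, 32, 38.4 and 32.5 in the model and 31.5, 32.3 and 29.4 in the TA group. The normal and model groups overlapped, and the highest normal liver was above 2 of 3 model livers. On this scale the TA and model groups also overlapped, with TA rat 2 above model rat 1. Mat2b had log2 fold changes of 0.21 ± 0.203 (edgeR adjusted p 0.511) in Model VS Normal and -0.16 ± 0.203 (edgeR adjusted p 0.71) in TA VS Model.

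The Mat1a to Mat2a ratio does not depend on library scaling, and since both transcripts have a length of 3346 bp behind the FPKM values, the ratio of counts is also the ratio per length. It was 50.4, 49.4 and 66.7 in normal rats 1 to 3, 3.43, 28.9 and 27.6 in model rats 1 to 3, and 65, 69.5 and 55.1 in TA rats 1 to 3. All 3 model livers had a lower ratio than any other liver, 2 of them at 27.6 and 28.9 and model rat 1 lower still. Group means were 55.5 ± 9.71, 20 ± 14.3 and 63.2 ± 7.4 (SD, n = 3). Mat2a made up 1.48% to 1.98% of both synthetase transcripts in the normal group, 1.42% to 1.78% in the TA group, and 22.6%, 3.34% and 3.49% in model rats 1 to 3. Mat1a therefore remained the major synthetase transcript in every liver.

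The mean log2 ratio was lower by 1.98 in the model than in the normal group (log2 difference -1.98 ± 1.02, SE; 3.93-fold), with an exact two-sided permutation p of 0.1. In TA VS Model the difference was 2.17 ± 1.02 (4.5-fold), also with an exact permutation p of 0.1. That is the smallest p that 3 rats against 3 allow, so this design could not pass 0.05. Without model rat 1 the differences were -0.96 and 1.16, with the groups still apart. TA and normal livers overlapped, with a difference of 0.19 ± 0.172 and an exact permutation p of 0.3. No adjusted values are given for the 3 exact tests, since the smallest p of the design is above the threshold before adjustment.

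**Figure D3:**
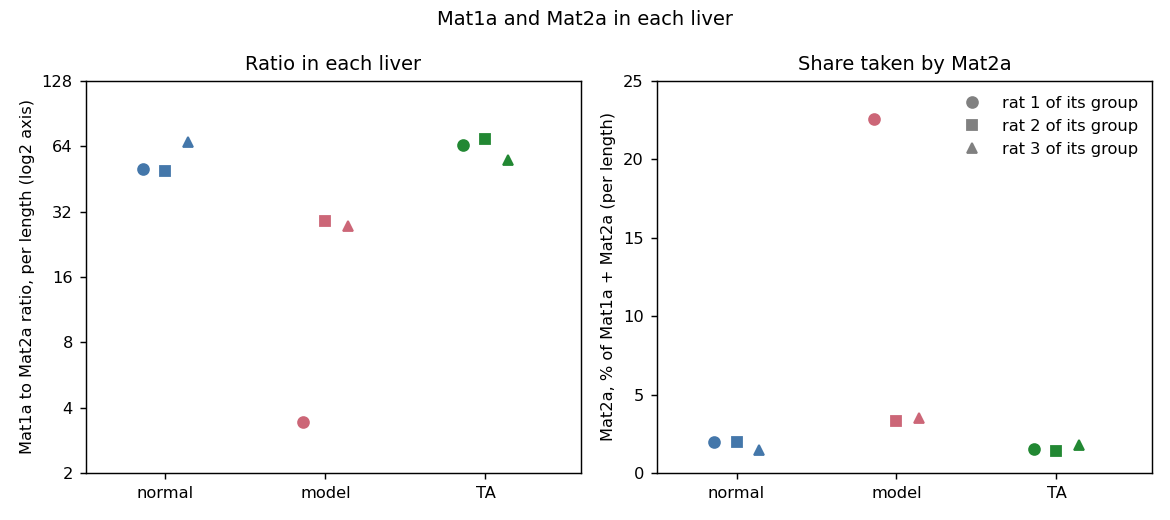
Left, ratio of Mat1a to Mat2a per length in each liver on a log2 axis; right, Mat2a as a percentage of Mat1a plus Mat2a on a linear axis from 0. Symbols are rats 1 to 3 of each group. The model livers have ratios of 3.43, 28.9 and 27.6, below the 49.4 to 69.5 of the other 6 livers, and Mat2a takes 22.6% in model rat 1.

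Gnmt, the glycine methyltransferase that disposes of excess SAM and is known as one of the abundant methyltransferases of liver, was near 0 in these tables. Its counts were 3, 14 and 5 in the normal, 0, 1 and 0 in the model, and 5, 3 and 6 in the TA group, at most 0.906 CPM. The summed counts were 22, 1 and 14, so the rate in the normal group was 18.6 times that in the model group (95% exact interval 3.01 to 769) and in the TA group 13.3 times (2.02 to 562). The ratio of normal to TA was 1.4 (0.687 to 2.97). These intervals cover counting error only. In a fit with no filter on low counts the log2 fold changes were -4.27, 3.69 and -0.62 in Model VS Normal, TA VS Model and TA VS Normal, with edgeR adjusted p of 0.0802, 0.266 and 0.886. Gnmt overlaps its neighbour Pex6 in the RefSeq annotation, and reads shared by overlapping genes can be left uncounted. Pex6 had 27.2 to 33.7, 8.6 to 18.5 and 18.2 to 24.3 CPM in the normal, model and TA groups, and why Gnmt was so low was not tested.

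Ahcy, the enzyme that clears S-adenosylhomocysteine, was called in Model VS Normal by both other tools but not by edgeR. Its counts were 13869, 21431 and 11385 in normal, 3635, 6850 and 9691 in model and 16707, 16960 and 12625 in TA rats. In CPM these were 1161, 1387 and 952, then 160, 447 and 686, then 1196, 1440 and 943. The model livers lay below all others, also when model rat 1 is set aside. Ahcy had a log2 fold change of -1.42 ± 0.566 in Model VS Normal (edgeR adjusted p 0.144; -1.06 without model rat 1, edgeR adjusted p 0.1). In TA VS Model it was 1.46 ± 0.58 (edgeR adjusted p 0.299; 1.08 without model rat 1). DESeq2 and limma voom gave adjusted p of 0.027 and 0.0162 for Ahcy in Model VS Normal, and over all alternatives the adjusted p ran from 0.0162 to 0.41. These tools called 2654 and 3433 of the 12730 genes tested there, and Ahcy was the only call of either among the 7 members.

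Bhmt, which uses betaine to remethylate homocysteine, spread widely within each group. It stood at 2063, 1996 and 2887 CPM in normal, 197, 1888 and 994 in model and 3199, 2688 and 1363 in TA rats. The model livers were below all normal livers, model rat 2 by 1888 against 1996 CPM, and TA rat 3 was below model rat 2, so the TA and model groups overlapped. Bhmt had a log2 fold change of -1.16 ± 0.764 in Model VS Normal (edgeR adjusted p 0.344) and 1.23 ± 0.808 in TA VS Model (edgeR adjusted p 0.459), and without model rat 1 it was -0.68 and 0.74. Reads of Bhmt can be split with the similar gene Bhmt2, a neighbour that uses S-methylmethionine. Bhmt2 had 462 to 530, 69.5 to 308 and 319 to 595 CPM in the normal, model and TA groups, with a log2 fold change of -1.14 ± 0.538 in Model VS Normal (edgeR adjusted p 0.203).

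Cbs, which commits homocysteine to cysteine, set the model livers apart. It stood at 395, 487 and 505 CPM in normal, 47.8, 240 and 276 in model and 415, 412 and 475 in TA rats. Every model liver was below every other liver. For Cbs, Model VS Normal gave a log2 fold change of -1.29 ± 0.596 (edgeR adjusted p 0.196) and 1.20 ± 0.598 in TA VS Model (edgeR adjusted p 0.361). Without model rat 1 it was -0.85 (edgeR adjusted p 0.0925) and 0.75 (edgeR adjusted p 0.47), both with an unadjusted p under 0.05, and Ahcy and Cbs were then the 2 members under that limit in either comparison. Of all genes, 3175 of 12884 were then under it in Model VS Normal and 1225 of 12911 in TA VS Model.

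Shmt1, the cytosolic serine hydroxymethyltransferase, overlapped between normal and model livers. It stood at 120, 165 and 250 CPM in normal, 42.3, 86.1 and 124 in model and 163, 167 and 140 in TA rats, with model rat 3 above normal rat 1. For Shmt1, Model VS Normal gave a log2 fold change of -1.07 ± 0.45 (edgeR adjusted p 0.163; -0.77 without model rat 1) and 0.88 ± 0.396 in TA VS Model (edgeR adjusted p 0.328; 0.58 without model rat 1). The TA livers lay above all model livers and within the range of the normal group.

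Because hepatocyte markers summed lower in the model group, the members were also set against them. Per 1000 counts of the 16 hepatocyte markers, Mat1a had 11.5, 12.3 and 15.2 counts in normal, 4.82, 13.3 and 11.3 in model and 22.5, 12.3 and 16.5 in TA rats, so only model rat 1 stood below the normal range by a wide margin. Ahcy had 5.4, 6.4 and 5.35 in normal, 3.4, 3.2 and 4.58 in model and 7.74, 6.15 and 6.25 in TA rats, and its model livers remained below all others, with model rat 1 no lower than model rat 2. Mat2a had 0.228, 0.249 and 0.228 in normal, 1.41, 0.459 and 0.408 in model and 0.346, 0.176 and 0.299 in TA rats, with every model liver above every other liver. On this scale Mat2b was also higher in every model liver (0.217 to 0.678) than in any normal liver (0.125 to 0.17). The share of all genes that separates the groups on this scale was not computed. Cbs had 1.84, 2.25 and 2.84 in normal against 1.01, 1.72 and 1.84 in model rats, which touch at 1.84. In TA rats Cbs had 2.69, 1.76 and 3.14, so the TA and model groups overlapped, with TA rat 2 below model rat 3.

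The whole fit was also scaled to the hepatocyte markers. The scale of a library was the median over markers of count relative to the marker's geometric mean across livers, not the sum. With this scale the median of all genes moved to 1.36 in Model VS Normal and to -1.27 in TA VS Model. The median of the 7 members was then -0.38 and 0.53. Mat1a stood at -0.38 and 0.63, Ahcy at -0.55 and 0.65, Cbs at -0.55 and 0.53, and Mat2a at 1.83 and -1.77. Mat2b stood at 1.52 and -1.40, near the medians of all genes. Shmt1 lay at -0.13 and turned sign to -0.03 in TA VS Model. The directions of the other 6 genes in these comparisons held under every scaling tried.

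**Figure D4:**
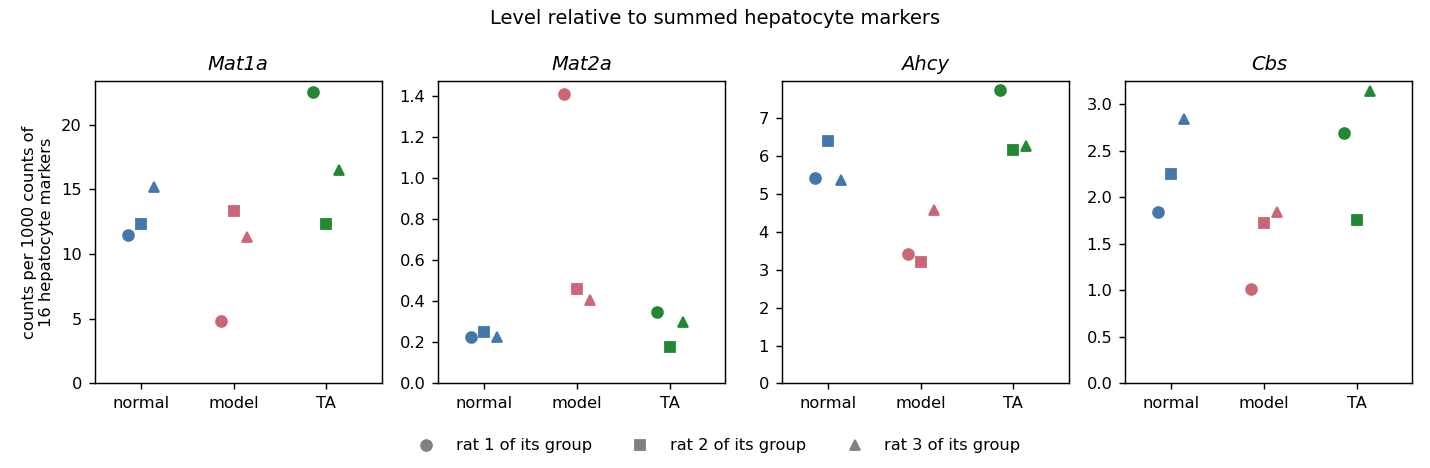
Counts of Mat1a, Mat2a, Ahcy and Cbs per 1000 counts of 16 hepatocyte markers in each liver, on linear axes from 0. Symbols are rats 1 to 3 of each group. The model livers lie below all others for Ahcy (3.2 to 4.58) and above all others for Mat2a (0.408 to 1.41), while for Mat1a model rats 2 and 3 (13.3 and 11.3) lie near the normal livers. How many of all genes separate the groups on this scale was not computed.

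The members moved in different degrees of company with Mat1a over the 9 livers, which share 3 groups and the low model rat 1. Pearson's r of log2 CPM with Mat1a was 0.976 for Cbs, 0.963 for Bhmt, 0.932 for Ahcy and 0.885 for Shmt1, but -0.168 for Mat2b and -0.619 for Mat2a. Among 7958 genes of sufficient level, the non-members most like Mat1a were Ass1, a urea cycle enzyme, with 0.989, Adk, the adenosine kinase that removes the adenosine released by Ahcy, with 0.986, and C3, the complement protein, with 0.986. Most like Mat2a were Tnpo2 with 0.91, Ctc1 with 0.89 and Lsp1 with 0.883. Adk stood at 331, 339 and 317 CPM in normal, 66.4, 256 and 287 in model and 408, 387 and 271 in TA rats, an order close to that of Mat1a. Tnpo2 stood at 42.6 to 52.2 CPM in normal, 50 to 52.9 in model and 46.1 to 48.7 in TA livers, so its normal and model livers overlapped. Ctc1 stood at 17.6 to 20.6, 21.8 to 28.4 and 15.5 to 19.9 CPM in these groups. Lsp1, a leukocyte protein, stood at 12.5 to 22.4 CPM in normal, 39.1 to 58 in model and 14.5 to 21.8 in TA livers.

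The surrounding pathways were read from 7 lists with 79 genes in all, of which 75 were tested in Model VS Normal. There, 10 of the 75 passed the edgeR adjusted threshold (13.3%, beside 7.87% of all genes), 7 rose and 3 fell. In TA VS Model and TA VS Normal none of them did, and 15 of 75 (20%) and 6 of 74 (8.11%) had an unadjusted p under 0.05. Of all tested genes, 15.6% and 9.43% were under that limit in these comparisons. DESeq2 called 25 of the 75 in Model VS Normal, where it called 2654 of all 12730 genes. It called 6 of the 75 in TA VS Model, beside 541 of all 12781 genes. In TA VS Normal it called 2 of 74, beside 360 of all 12179 genes. Scaled to the hepatocyte markers, 7 of the 10 were called again and the 3 that fell were not, with log2 fold changes of -0.76 for Slc46a1, -0.36 for Aldh1l2 and -0.15 for Ethe1. None of the 10 passed when any 1 of the 3 normal rats was left out. Of all genes, 51, 0 and 0 then passed without normal rats 1, 2 and 3. Of the 10, 6 passed without model rat 1, 3 without model rat 2 and 10 without model rat 3. Of all genes, 888, 589 and 2537 passed in those fits. All 10 kept their direction whichever rat was left out.

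In serine synthesis, 2 of 3 genes rose. Phgdh, the first enzyme from glycolysis to serine, rose by 3.54 ± 0.54 on the log2 scale in Model VS Normal (edgeR adjusted p 0.0145; 3.47 without model rat 1). Its counts were 22, 11 and 24 in normal, 418, 376 and 124 in model and 42, 60 and 24 in TA rats. Psat1, the next enzyme of that route, rose by 2.15 ± 0.462 (edgeR adjusted p 0.0352), with 19, 41 and 13 counts in normal, 247, 108 and 79 in model and 21, 29 and 24 in TA rats. For both genes every model liver was above every normal and TA liver, and for Phgdh model rat 2, at 24.5 CPM, was above model rat 1, at 18.4 CPM. The third gene of the list was not called. In TA VS Model the log2 fold changes were -2.41 (edgeR adjusted p 0.23) for Phgdh and -2.05 (edgeR adjusted p 0.23) for Psat1. Other settings did call them there: of the 10 pathway genes, DESeq2 called Phgdh, Psat1, Mthfd1l, Mthfd2, Mthfd2l and Slc46a1 in TA VS Model, limma voom called Psat1 and Slc46a1, and scaling to hepatocyte markers called 6, with Sat1 in place of Slc46a1. Of all 12781 genes, these 3 settings called 541, 169 and 1749.

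In the folate cycle, 3 genes rose and 2 fell of 27 tested, with a list median of -0.50. The 3 that rose encode mitochondrial folate enzymes. On the log2 scale they rose by these amounts: Mthfd1l by 2.94 ± 0.699 (edgeR adjusted p 0.0443), Mthfd2 by 2.66 ± 0.523 (edgeR adjusted p 0.0287) and Mthfd2l by 2.52 ± 0.552 (edgeR adjusted p 0.0369). They were rare, with 13, 14 and 9 counts of Mthfd2 in normal, 169, 109 and 37 in model and 22, 25 and 20 in TA rats. Mthfd1l had 4 to 14 counts in normal and 47 to 218 in model livers, and Mthfd2l 3 to 7 and 18 to 52. Slc46a1, a folate transporter, fell by 1.97 on the log2 scale (SE 0.33, edgeR adjusted p 0.0181), from 40.1 to 77.4 CPM in normal to 10.4 to 18 in model livers, with 26.1 to 32 in TA livers. Aldh1l2, the mitochondrial 10-formyltetrahydrofolate dehydrogenase, fell by 1.54 on that scale (SE 0.295, edgeR adjusted p 0.0269), with 42.4 to 74.2, 15 to 24.5 and 17 to 35.9 CPM.

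**Figure D5:**
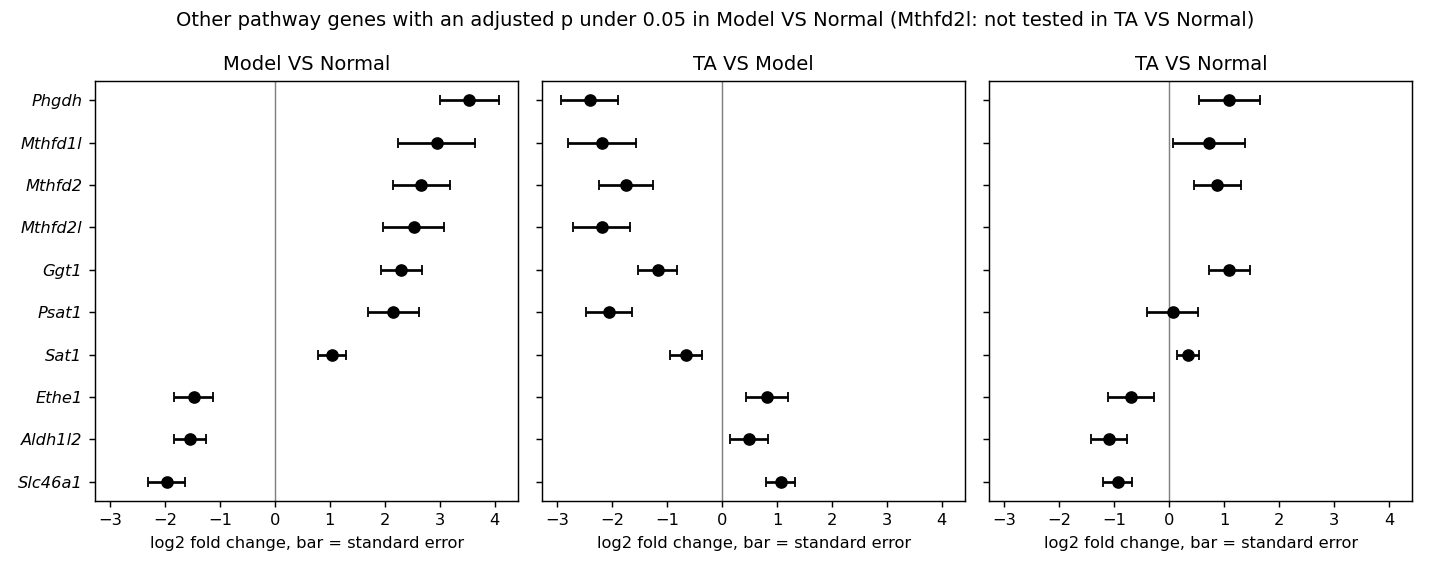
Log2 fold change, with bars of 1 standard error, of the 10 genes from the surrounding pathways that passed the edgeR adjusted threshold in Model VS Normal, shown in the 3 comparisons. The 7 genes above 0 in Model VS Normal (Phgdh to Sat1) lie below 0 in TA VS Model and the 3 below 0 lie above it, where none passed the edgeR threshold, and Mthfd2l was not tested in TA VS Normal.

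Polyamine synthesis and methionine salvage draws on SAM at another point, and 1 of 15 genes rose there. This was Sat1, the acetylase that starts polyamine breakdown, with 82.2 to 89.7 CPM in normal, 149 to 196 in model and 93.1 to 134 in TA livers (log2 fold change 1.04 ± 0.256, edgeR adjusted p 0.0488). Among 11 genes of cysteine, taurine, glutathione and sulfide metabolism, 1 rose and 1 fell. Ggt1, which cleaves extracellular glutathione, rose by 2.30 ± 0.378 on the log2 scale (edgeR adjusted p 0.0171), with 18, 26 and 14 counts in normal, 199, 108 and 77 in model and 50, 30 and 46 in TA rats. Ethe1, a mitochondrial sulfide oxidising enzyme, fell by 1.48 on that scale (SE 0.351, edgeR adjusted p 0.0443). Csad, an enzyme of taurine synthesis, had the smallest p of the list among genes higher in the TA than in the model group, and stood at 290 to 359 CPM in normal, 46 to 144 in model and 169 to 572 in TA livers (log2 fold change 1.63, edgeR adjusted p 0.282).

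The main edgeR design called no gene of the other 3 lists. For Model VS Normal, DESeq2 called 6 of their 19 tested genes, Chdh, Slc44a1, Ada and Tpmt among them. There limma voom called 6, Chdh and Slc44a1 among them. Of all 12730 genes, these tools called 2654 and 3433. Among other edgeR settings, library totals and hepatocyte scaling each called 2 of the 19, Ada and Slc44a1. The fit of all 9 libraries called 4, and leaving out 1 rat gave 0 to 5. The remaining settings called none. Of choline and betaine oxidation, which feeds Bhmt, 6 of 7 genes had a fold change below 0 in Model VS Normal, and the median was -1.14. Chdh, which starts the conversion of choline to betaine, stood at 150 to 176 CPM in normal, 26.8 to 87.3 in model and 107 to 208 in TA livers, with a log2 fold change of -1.42 ± 0.418 (edgeR adjusted p 0.0736). Slc44a1, a choline transporter, was the one gene above 0, at 1.22 ± 0.38 (edgeR adjusted p 0.0857). All 7 tested SAM-dependent small molecule methyltransferases had fold changes below 0, with a median of -1.10, and Tpmt, which methylates thiopurines, stood at 52.4 to 91.6 CPM in normal, 26.6 to 41.9 in model and 40.3 to 47.9 in TA livers (edgeR adjusted p 0.0843). Of the 5 genes of S-adenosylhomocysteine and adenosine handling, Ada, the adenosine deaminase, was the one above 0, at 1.46 ± 0.487 (edgeR adjusted p 0.101), and at 0.69 without model rat 1. In these 3 lists the fold changes below 0 stood beside hepatocyte markers that were all below 0 too.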

How the data were processed

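Liver poly(A) RNA of 9 rats, 3 per group, was sequenced. After trimming, the authors aligned reads with STAR and obtained gene counts from HTSeq-count. The deposited tables hold read counts, FPKM values by the authors, and a signal that the authors made by dividing the counts by DESeq2 size factors. Counts were tested; FPKM gave transcript lengths, and the signal was not needed. The 3 columns per table with the authors' own comparisons were not used. The paper and the labels name human and mouse builds, while the gene symbols are those of rat, so no position was taken from the tables. The tables listed 16938 and 16948 genes, 16730 in both, and 90.9% of all names matched RefSeq GRCr8.

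The members and gene lists were chosen with earlier results of these data known. Each comparison was fitted on its 6 livers with edgeR 4.0.16 (R 4.3.3): TMM, filterByExpr, quasi-likelihood F test and Benjamini-Hochberg adjustment over all tested genes at 0.05. Standard errors were obtained as the log2 fold change over √F. The Mat1a to Mat2a ratio was compared by an exact permutation test. Named besides the members were, per pathway list, genes past the threshold in Model VS Normal or TA VS Normal, otherwise the gene of smallest p in each direction if under 0.05, the same for TA VS Model, and the 3 genes most alike Mat1a and Mat2a by Pearson's r of log2 CPM (prior count 2, mean log2 CPM of at least 3). limma 3.58.1 and DESeq2 1.42.0 served for alternatives. The fits were also run on simulated counts drawn from a common mean profile, with no library of shifted composition. That run cannot show how the fits handle such a library. The paper states that rats were assigned to groups at random, and nothing says that same-numbered rats were matched. Each p-value sets a difference between groups against the spread between the rats within them.

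Rats share replicate numbers 1 to 3 across groups. Deviations of same-numbered rats correlated at 0.258, 0.426 and 0.501 in TA VS Normal, over 0.1 in each pair. A replicate block was fitted beside the main design in all 3 comparisons. In TA VS Normal it called 203 genes in place of 32, and 0 of the members. In Model VS Normal it called 1216 genes in place of 1002 and in TA VS Model 0, with 0 of the members in both. In Model VS Normal and TA VS Model the same-numbered correlations were not all over 0.1.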

Additional observations from a re-analysis of the deposited data

How the results depend on the processing

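Of the fold changes of the 7 members under alternatives, 351 kept their direction and side of the threshold, 3 came past the threshold and 24 changed sign, 23 of them in TA VS Normal, where the values lie near 0. The Mat1a to Mat2a ratio kept its order under each alternative in Model VS Normal and TA VS Model. The cause of the differences below was not tested. In Model VS Normal, 1002 genes passed with the main design, 2654 with DESeq2, 3433 with limma voom with quality weights, 1980 with library totals only, 2913 with scaling to hepatocyte markers, 465 with at least 10 counts in every library and 1757 with all 9 libraries in one fit, and leaving out 1 rat gave 0 (without normal rat 2 or 3) to 2537 (without model rat 3). Members called there were 1 with DESeq2 (Ahcy), 1 with limma voom (Ahcy) and 1 with library totals (Mat2a). Members at an unadjusted p under 0.05 were 4 with limma voom and 4 with no filter (Gnmt among them), and 0 to 3 when 1 rat was left out, with 0 without normal rat 2, normal rat 3 or model rat 2. Genes at that limit were 3674 of 12730 in the main design, 5186 of 12730 with limma voom and 4344 of 16938 with no filter. Leaving out 1 rat gave 2727 to 4675 such genes.

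In TA VS Model, 541 genes passed with DESeq2, 169 with limma voom and 1749 with scaling to hepatocyte markers, against 0 with edgeR, where 1999 had an unadjusted p under 0.05; leaving out 1 rat gave 0 to 1. Members at an unadjusted p under 0.05, 1 in the main design, were 3 with DESeq2, 4 with limma voom, 2 with the newer quasi-likelihood form, upper quartile scaling or library totals, and 3 with no filter, all 9 libraries or the replicate block; leaving out 1 rat gave 0 to 3, with 0 without model rat 2 or any TA rat. Of all 12781 genes, 2492 were at that limit with DESeq2, 3476 with limma voom and 2205 with the replicate block. The newer form, upper quartile scaling and library totals gave 2126, 2096 and 2769 of them. With no filter there were 2489 of 16948 genes, and with all 9 libraries 2516 of 12998. Leaving out 1 rat gave 1092 to 3278 genes. Shmt1 stood at -0.0303 with scaling to hepatocyte markers.

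In TA VS Normal, 360 genes passed with DESeq2, 126 with limma voom, 56 with library totals, 74 with hepatocyte scaling, 76 with no filter, 14 with all 9 libraries and 203 with the replicate block, and leaving out 1 rat gave 1 to 61. Mat2a stood at 0.12 with library totals, 0.22 with hepatocyte scaling and -0.178 to 0.0290 when 1 rat was left out, Mat2b at -0.0509 to 0.0802 and Ahcy at -0.17 to 0.15. Ahcy was -0.0018 with DESeq2 and RLE, -0.0048 with no filter and -0.0023 with the replicate block, and Bhmt was -0.0247 with the block and -0.22 to 0.32 with 1 rat left out. Cbs was 0.0638 with library totals and 0.16 with hepatocyte scaling, and Shmt1 was 0.0924 with limma voom, 0.0092 with hepatocyte scaling and -0.45 to 0.10 with 1 rat left out. The replicate block changed no call of a member. At this depth Gnmt, with at most 14 counts in a liver, cannot be followed between single rats.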
